A study of Mus musculus with 16 samples.

Results

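The unfolded protein response is the set of genes that a cell adjusts when proteins in its endoplasmic reticulum (ER) fail to fold. In mouse liver it was followed through 10 of its best known genes: Hspa5, Xbp1, Ddit3, Atf4, Herpud1, Dnajb9, Sdf2l1, Pdia4, Hsp90b1 and Trib3. They were found by symbol among 78317 listed genes, and all 10 were among the 14781 genes that could be tested. The RNA was from homogenized whole liver of inbred C57BL/6J mice, whose genotype the labels give as wt. The 4 groups had 4 libraries each: females on a normal chow with 4.5% of calories from fat, females on a high fat diet with 60% of calories from fat, and males on each of these diets. The mice were 6 weeks old on arrival, and the diets lasted 10 weeks. The diets came from different makers and may differ in more than fat. The study asked what high fat feeding does to the liver transcriptome of each sex. The labels number the replicates and do not state that each is a separate mouse, so p-values measure the spread between these samples.

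Sensors in the ER membrane, IRE1, PERK and ATF6, start the response. IRE1 splices the mRNA of Xbp1, a transcription factor that raises genes of folding and of protein disposal; PERK slows translation while favouring translation of Atf4, whose targets include Ddit3 (CHOP) and Trib3; and ATF6 is cut free to raise chaperones such as Hspa5. Liver cells secrete large amounts of protein, so hepatocytes hold much ER and express these chaperones at rest.

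The proximal promoters are shown for the chaperones Hspa5 and Hsp90b1 and for Herpud1 because the results turn on how differently Hspa5 and Herpud1 moved, and because these 3 of the 10 genes held an ER stress element. Each sequence runs from 230 bases before the annotated start to 1 base before it, on the gene's own strand, from the RefSeq promoter table (GRCm38.p6). In Hspa5 (chr2:34771860-34772089, plus strand) the capitals mark an XBP1-type core, TGACGTGA, and then the ER stress element, which is CCAAT, a gap of 9 bases and CCACG. In Herpud1 (chr8:94386199-94386428, plus strand) they mark an amino acid response type element, TGATGNAA, read on the minus strand, and then the second form of the ER stress element, ATTGG, 1 base and CCACG. In Hsp90b1 (chr10:86705445-86705674, minus strand) they mark 2 ER stress elements, the one nearer the start in reverse orientation.
Hspa5: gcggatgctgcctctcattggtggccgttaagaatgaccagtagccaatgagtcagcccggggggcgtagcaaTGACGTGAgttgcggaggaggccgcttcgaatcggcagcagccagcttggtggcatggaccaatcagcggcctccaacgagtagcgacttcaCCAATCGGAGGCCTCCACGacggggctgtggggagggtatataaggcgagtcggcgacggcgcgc
Herpud1: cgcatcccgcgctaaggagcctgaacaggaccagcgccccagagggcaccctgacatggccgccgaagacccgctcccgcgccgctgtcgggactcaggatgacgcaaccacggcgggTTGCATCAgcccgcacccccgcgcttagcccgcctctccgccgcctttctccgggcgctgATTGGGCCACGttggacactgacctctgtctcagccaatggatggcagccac
Hsp90b1: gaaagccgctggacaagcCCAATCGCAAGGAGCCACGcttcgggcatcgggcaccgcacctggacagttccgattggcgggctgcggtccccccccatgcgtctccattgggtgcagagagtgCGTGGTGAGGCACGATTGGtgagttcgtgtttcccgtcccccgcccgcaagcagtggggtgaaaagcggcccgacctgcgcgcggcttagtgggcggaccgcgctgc

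All 10 genes matched a promoter window of 300 bases, which includes the 50 bases from the start onward. On both strands, the ER stress element occurred in 39 of 32851 windows (0.119%), and the second form in 12 (0.0365%). The XBP1-type core, TGACGTGG or TGACGTGA, was in 1.12% of windows, and the amino acid response type element in 3.97%. Trib3 held the last of these, at position 14 after its start. In the windows of Xbp1, Ddit3, Atf4, Dnajb9, Sdf2l1 and Pdia4, none of these 4 motifs was found. A match describes letters in this window and no binding was measured.

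Total counts ranged from 22228115 to 41420589 per library. Male high fat diet replicates 2 and 3 were unusually alike: their chi-square statistic per gene was 4.07, where sampling noise alone expects 1 and the other pairs of that group had 55.6 to 308. In comparisons that use this group, the calls of the 10 genes and of the named wider pathway genes are therefore also given without them. Calls of cell type markers and of heat shock, clock and immediate early genes are given with them only. Summed markers of pancreatic acinar cells, an ER-rich cell type absent from liver, were 24.6 and 10.4 CPM (read counts relative to the scaled library size) in these libraries and 5.29 CPM in female normal diet replicate 4. They were at most 0.78 CPM elsewhere. All 7 acinar markers were detected in the female normal diet and male high fat diet groups, while 5 of 7 were at 0 in females on high fat diet and 4 of 7 in males on normal diet. Hepatocyte markers were present in every library, with a summed level of 56700 to 118000 CPM.

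Compared per length, in TPM (a transcript abundance corrected for gene length) averaged over the 16 libraries, the chaperones stood highest. Hsp90b1 had 527 TPM and Hspa5 434 TPM, followed by Herpud1 at 260, Xbp1 at 124, Pdia4 at 107, Dnajb9 at 76.8 and Atf4 at 48.6 TPM. Sdf2l1 at 15.2 TPM, Ddit3 at 12.6 TPM and Trib3 at 2.07 TPM were lowest. Neighbours in this order were in the same order in 13 or more of the 16 libraries, except Sdf2l1 and Ddit3, where the order held in 9. In the normal diet males Hspa5 stood above Hsp90b1, and Pdia4 above Xbp1. In annotation, Ddit3 overlaps Mars and Gm4189 on the other strand, and Hsp90b1 overlaps Gm15344 and Gm25745 on its own strand and 1810014B01Rik on the other. The strand setting of the counting is not given in the sources used here, and estimated counts of Hsp90b1 were not whole in any of the 16 libraries, so the levels of these genes are less certain.

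**Figure D1:**
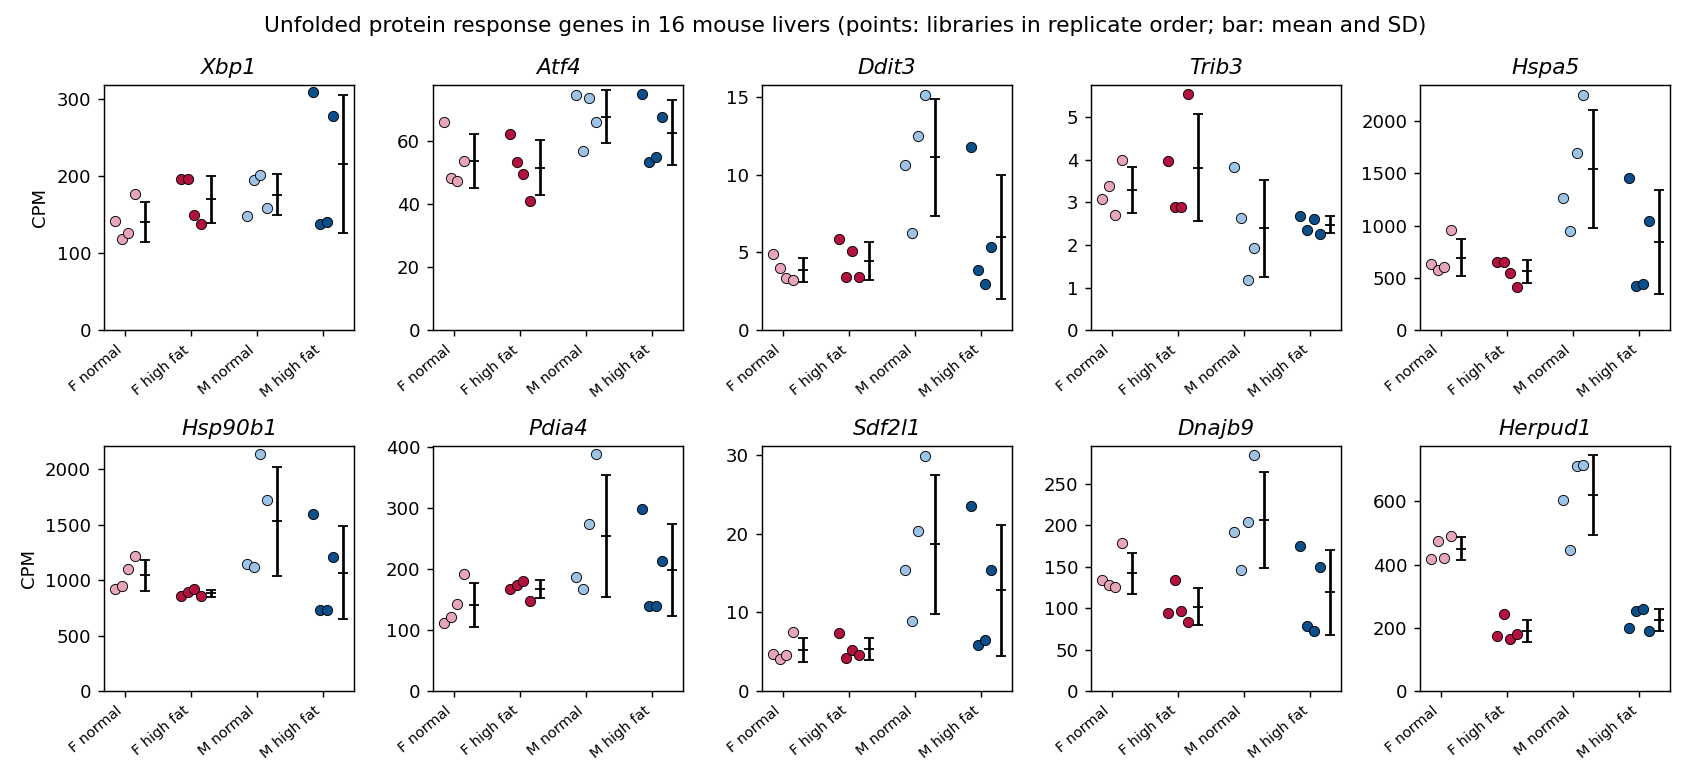
CPM of each of the 10 genes (vertical axes, from 0) in the 4 groups on the horizontal axis, F for female and M for male. Points are libraries in replicate order, and the bar beside them is the mean with the SD (n = 4). Herpud1 separates the diets in both sexes, and most chaperones are high and widely spread in males on normal diet.

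Herpud1 (ENSMUSG00000031770.17) was the 1 gene of the 10 that passed the test with diet, and it fell in both sexes. It encodes an ER membrane protein that helps assemble the complexes which send misfolded proteins to degradation. In females on normal diet it had 417, 474, 421 and 492 CPM, and on high fat diet 173, 243, 166 and 182 CPM. In males on normal diet it had 605, 446, 713 and 716 CPM, and on high fat diet 199, 253, 258 and 190 CPM. Every high fat diet library was below every normal diet library of its sex, and also below those of the other sex. The fold was 0.424 in females (log2 fold change -1.24 ± 0.16 SE, adjusted p = 0.000142 by edgeR's quasi-likelihood test with Benjamini-Hochberg adjustment over all tested genes). It was 0.363 in males (-1.46 ± 0.16, adjusted p = 3.69e-05 by the same edgeR test). By p-value Herpud1 ranked 49 of 14781 genes in females and 18 in males.

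The count was 1 of 10 genes called in each sex, against 11.5% of all tested genes in females and 11.4% in males. Of all tested genes 5.76% were called lower in females and 5.36% in males. Groups that did not overlap, as for Herpud1 alone among the 10, occurred for 18.3% of tested genes in the female diet comparison and 18.5% in the male one. The share of these genes called was thus near the background, and the result concerns Herpud1 itself. Its fall was called in each of 18 alternative settings in each sex, with a log2 fold change of -1.38 to -1 in females and -1.68 to -1.37 in males. In these bulk samples, fewer cells that express a gene and less of its RNA per cell cannot be told apart.

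The other luminal chaperones and their partners did not pass the test with diet. Hspa5 (ENSMUSG00000026864.14) encodes BiP, the main Hsp70 chaperone of the ER. In females it had 631, 579, 609 and 961 CPM on normal diet and 649, 648, 546 and 410 CPM on high fat diet. In males it had 1260, 950, 1690 and 2250 CPM on normal diet and 1460, 426, 446 and 1040 CPM on high fat diet. The groups overlapped in both sexes, and in males on high fat diet replicates 2 and 3 were low while replicates 1 and 4 stood within the normal diet range. The log2 fold change was -0.30 ± 0.37 in females (edgeR adjusted p = 0.634) and -0.87 ± 0.37 in males (edgeR adjusted p = 0.139).

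Hsp90b1 encodes GRP94, the Hsp90 chaperone of the ER. Its group means were 1050 ± 140 and 884 ± 30.9 CPM (SD, n = 4) in females on normal and high fat diet, and 1530 ± 494 and 1070 ± 420 CPM in males. Pdia4, a protein disulfide isomerase, had 141 ± 35.5 and 167 ± 14.1 CPM in the female groups and 254 ± 100 and 198 ± 75.8 CPM in males. None of these differences with diet passed the test, and the groups overlapped in each sex.

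Sdf2l1, which works with BiP and its co-chaperones, had 15.4, 8.93, 20.4 and 29.9 CPM in males on normal diet and 23.5, 5.84, 6.49 and 15.4 CPM on high fat diet. In females it was near 5 CPM on both diets, with 5.20 ± 1.55 CPM on normal and 5.36 ± 1.44 CPM on high fat diet. The groups overlapped, and its log2 fold change was 0.04 ± 0.46 in females and -0.55 ± 0.44 in males (edgeR adjusted p = 0.971 and 0.454). Dnajb9, a BiP co-chaperone also called ERdj4, came closest to the threshold after Herpud1. In males it had 192, 146, 204 and 285 CPM on normal diet and 175, 78.6, 72.5 and 150 CPM on high fat diet, a log2 fold change of -0.80 ± 0.27 (edgeR adjusted p = 0.0683), and DESeq2 called it lower. In females its log2 fold change was -0.48 ± 0.27 (edgeR adjusted p = 0.272).

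Among the transcription factors, Xbp1 had a higher mean on high fat diet in both sexes, as Trib3 did among the other genes. It had 141, 118, 126 and 176 CPM in females on normal diet and 196, 196, 149 and 138 CPM on high fat diet. In males it had 148, 195, 201 and 158 CPM on normal diet and 308, 138, 140 and 277 CPM on high fat diet, so that replicates 1 and 4 lay above and replicates 2 and 3 below the whole normal diet group. Neither change was called, with log2 fold changes of 0.28 ± 0.24 in females and 0.30 ± 0.24 in males (edgeR adjusted p = 0.486 and 0.447). The values count all Xbp1 transcripts of the gene, spliced by IRE1 or not, so they carry no measure of IRE1 activity.

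In the PERK branch, Atf4 varied least of the 10 genes. Its levels lay between 41.1 and 74.9 CPM in all libraries, and its log2 fold change with diet was -0.06 ± 0.15 in females and -0.11 ± 0.15 in males. Since Atf4 is controlled mainly in translation, its RNA level is a partial measure of it. Ddit3, the factor CHOP that promotes cell death under prolonged stress, had 4.89, 3.99, 3.33 and 3.24 CPM in females on normal diet and 5.86, 3.41, 5.09 and 3.45 CPM on high fat diet. In males it had 10.6, 6.22, 12.5 and 15.1 CPM on normal diet and 11.8, 3.87, 2.95 and 5.36 CPM on high fat diet. All high fat diet males but replicate 1 were below the normal diet males, and the change was not called (-0.89 ± 0.36, edgeR adjusted p = 0.124). Trib3, a pseudokinase induced by ATF4 and CHOP, ranged from 1.17 to 5.53 CPM and had log2 fold changes with diet of 0.21 ± 0.28 in females and 0.05 ± 0.29 in males.

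**Figure D2:**
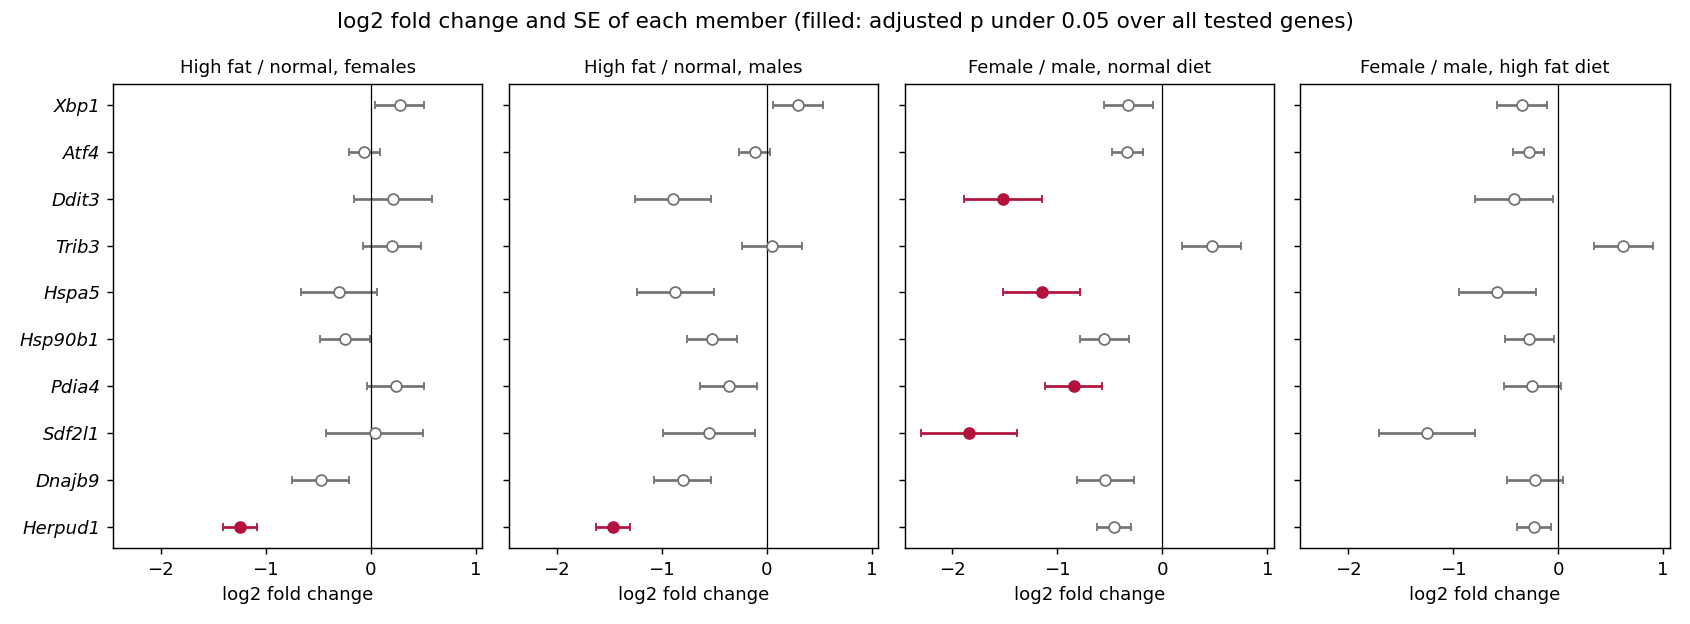
Log2 fold change (horizontal axis) with its standard error for each of the 10 genes in 4 comparisons. Filled points had an adjusted p under 0.05 over all tested genes. Herpud1 is filled in both diet panels, at -1.24 in females and -1.46 in males, and 4 genes are filled for females against males on normal diet.

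Over the 10 genes the median log2 fold change with diet was -0.01 in females, with 5 genes above 0 and 5 below. In males it was -0.54, with 2 above and 8 below, while the median of all tested genes was 0.01. On log2(TPM + 1), a scale on which the median of all genes in females was 0.15, the female median of the 10 genes was 0.21, with 7 above 0 and 3 below. Which genes besides Herpud1 were called in males turned on single libraries and on the test, since DESeq2 on all libraries called Dnajb9 as well (-0.82, DESeq2 adjusted p = 0.0152). Without male high fat diet replicate 1, 5 of the 10 genes were called lower in males, where 6.48% of all tested genes were called lower in that fit: Herpud1, Ddit3 (-1.47, edgeR adjusted p = 0.00369), Hspa5 (-1.29, 0.0276), Dnajb9 (-1.06, 0.0175) and Hsp90b1 (-0.79, 0.0241). Without male normal diet replicate 2, Dnajb9 was called beside Herpud1 (-0.94, edgeR adjusted p = 0.0472). With male high fat diet replicates 2 and 3 left out instead, Herpud1 was still called lower (-1.68 ± 0.20, edgeR adjusted p = 0.000131), and Xbp1 was called higher (0.74 ± 0.18, edgeR adjusted p = 0.0196). The others were then closer to 0, at -0.30 for Hspa5, -0.37 for Ddit3, -0.35 for Dnajb9, -0.13 for Hsp90b1, 0.01 for Pdia4, 0.05 for Sdf2l1, 0.07 for Atf4 and 0.05 for Trib3. In that fit 5 of the 10 genes had a positive and 5 a negative log2 fold change.

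The diet effects were not shown to differ between the sexes for any of the 10 genes. None was called for the interaction of diet and sex by edgeR, where 0.677% of all tested genes were, none had an unadjusted p under 0.05, and DESeq2 called none either. In the fit with all libraries, the change was more positive in females than in males for 9 of 10 genes. The median difference was 0.30 on the log2 scale, against -0.01 over all genes. Ddit3 had the largest difference, 1.10 ± 0.52 (edgeR adjusted p = 0.387). With replicate 1 of the high fat diet males left out, the difference was 1.70 and was called (edgeR adjusted p = 0.0424). For Herpud1 the difference was 0.23 ± 0.23 (edgeR adjusted p = 0.725). With male high fat diet replicates 2 and 3 left out, none of the 10 genes was called for the interaction either. The male changes of Xbp1, Atf4, Dnajb9, Sdf2l1 and Hsp90b1 without them were more positive than the female changes of the main fit. Xbp1 had 0.74 in males and 0.28 in females, Dnajb9 -0.35 and -0.48, and Hsp90b1 -0.13 and -0.24. Hspa5 was at -0.30 in both, and Ddit3, Herpud1, Pdia4 and Trib3 stayed more positive in females. The direction thus depended on these libraries for several genes.

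On normal diet, females had less RNA of Hspa5, Ddit3 (ENSMUSG00000025408.16), Sdf2l1 (ENSMUSG00000022769.10) and Pdia4 (ENSMUSG00000025823.10) than males. These 4 of 10 genes were called lower in females, where 15.7% of all tested genes were called and 8.68% were called lower. Sdf2l1 had 4.67, 4.11, 4.54 and 7.50 CPM in females against 15.4, 8.93, 20.4 and 29.9 CPM in males, a fold of 0.280 (log2 fold change -1.84 ± 0.46, edgeR adjusted p = 0.0156). Ddit3 had 3.86 ± 0.763 CPM in females, compared with 11.1 ± 3.72 CPM in males (SD, n = 4), a fold of 0.348 (-1.52 ± 0.37, edgeR adjusted p = 0.012). For Sdf2l1 and Ddit3 every female library was below every male library, as for 22% of all tested genes in either direction.

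Hspa5 had 695 ± 178 CPM in females, compared with 1540 ± 562 CPM in males on normal diet (log2 fold change -1.15 ± 0.37, edgeR adjusted p = 0.0481). Female replicate 4, at 961 CPM, was just above male replicate 2, at 950 CPM. Pdia4 had 111, 121, 142 and 191 CPM in females, compared with 187, 168, 274 and 388 CPM in males (-0.85 ± 0.28, edgeR adjusted p = 0.0481), again with overlap through female replicate 4. The calls of Hspa5 and Pdia4 were each lost in 9 of 18 alternative settings, with adjusted p of up to 0.146 and 0.167, both without male normal diet replicate 4. Sdf2l1 lost its call without female normal diet replicate 2 (edgeR adjusted p = 0.0574), and Ddit3 was called in all 18 settings.

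Herpud1 was also lower in mean in females on normal diet, by -0.46 ± 0.16 on the log2 scale, and missed the threshold (edgeR adjusted p = 0.0583). It was called in 4 of 18 alternative settings. These were without male normal diet replicate 2 (-0.58, edgeR adjusted p = 0.0185) and with the compared groups alone (-0.45, edgeR adjusted p = 0.0406). The others were with male high fat diet replicates 2 and 3 left out (-0.46, edgeR adjusted p = 0.0457) and with DESeq2 (-0.45, DESeq2 adjusted p = 0.0352). The remaining log2 fold changes were -0.55 for Hsp90b1, -0.55 for Dnajb9, -0.33 for Atf4 and -0.32 for Xbp1, and Trib3 at 0.47 was the one gene with a higher mean in females. The median over the 10 genes was -0.55, against -0.002 over all tested genes. This comparison and the diet comparison in males use the same male normal diet libraries.

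On high fat diet none of the 10 genes was called between the sexes by edgeR, where 20.4% of all tested genes were. At an unadjusted p under 0.05 there were 2, Sdf2l1 and Trib3, and DESeq2 called 1, Sdf2l1. Sdf2l1 had 7.43, 4.20, 5.16 and 4.63 CPM in females, compared with 23.5, 5.84, 6.49 and 15.4 CPM in males (-1.25 ± 0.46, edgeR adjusted p = 0.0675). Trib3 had 3.96, 2.88, 2.88 and 5.53 CPM in females, compared with 2.68, 2.34, 2.61 and 2.26 CPM in males, without overlap (0.62 ± 0.28, edgeR adjusted p = 0.124). Groups without overlap occurred for 22.7% of all tested genes. With replicates 2 and 3 of the high fat diet males left out, 4 genes were called lower in females: Sdf2l1 (-1.86, edgeR adjusted p = 0.00497), Hspa5 (-1.15, 0.0147), Xbp1 (-0.79, 0.00654) and Hsp90b1 (-0.67, 0.0401). Of all tested genes 10.1% were called lower in that fit.

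Most of the 10 genes varied together between libraries of 1 group. In males the spread was wide: the median SD of log2 CPM within a group was 0.592 for these genes on high fat diet and 0.497 on normal diet, against 0.231 and 0.229 for all tested genes. In females it was 0.281 on high fat diet and 0.245 on normal diet, against 0.262 and 0.208. Averaged over the 10 genes, male high fat diet replicate 1 lay 0.61 above its group on the log2 scale and replicate 4 0.22 above. Replicates 2 and 3 lay 0.41 and 0.42 below it. In males on normal diet replicate 2 lay 0.40 below the mean and replicate 4 0.32 above.

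**Figure D3:**
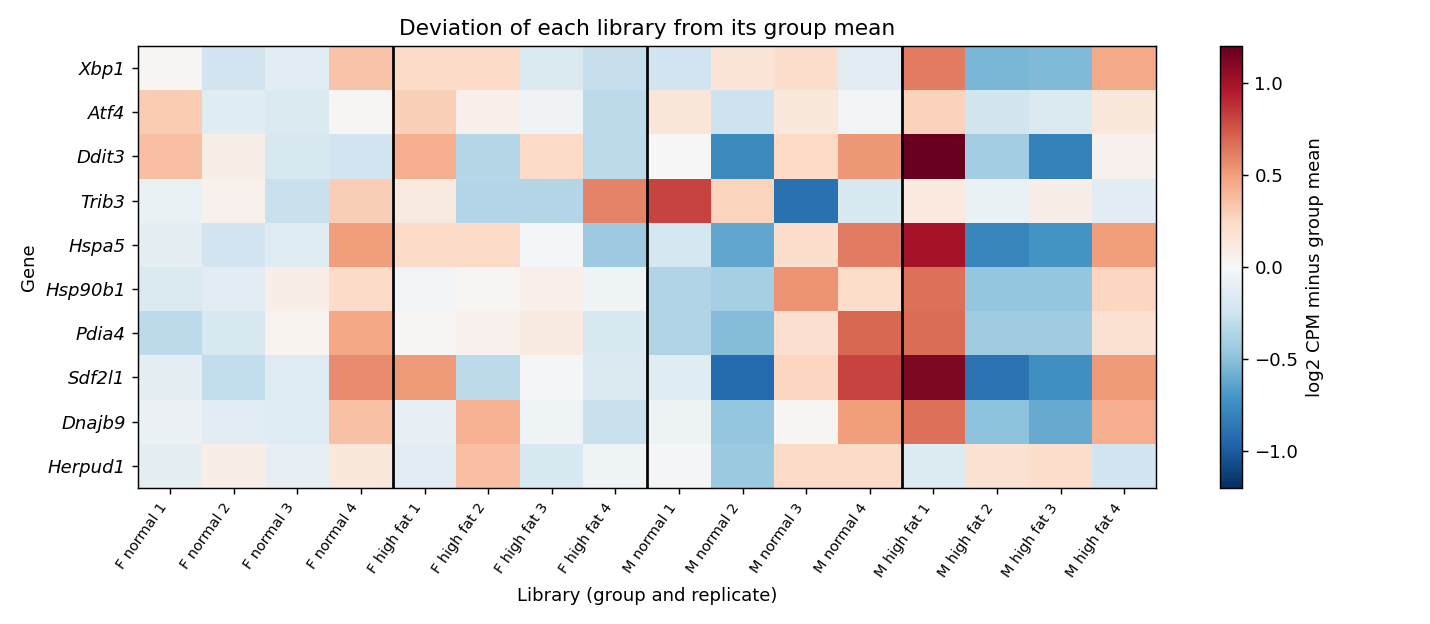
Log2 CPM of each of the 10 genes (rows) in each library (columns) minus the mean of its group, from blue (below) to red (above). In males on high fat diet 9 of 10 genes are above the group mean in replicate 1 and 1 of 10 in replicate 2, with Herpud1 the exception in both.

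As a description over 16 libraries with group means removed, 32 of the 45 pairs of genes had a positive Pearson correlation. The median was 0.63 and the range was from -0.44, for Hsp90b1 and Trib3, to 0.95, for Hspa5 and Dnajb9. Each gene was also set against the mean of the other 9 genes, and Hspa5 (0.98), Sdf2l1 (0.94) and Dnajb9 (0.91) followed it most closely. Herpud1 (-0.06) and Trib3 (-0.30) did not follow it. Without the male high fat diet libraries Herpud1 had 0.63, and Xbp1 went from 0.68 to 0.24. The points share depth and scaling within a library, and male high fat diet replicates 2 and 3 are unusually alike.

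Herpud1 and Hspa5 thus moved differently in 1 group. In males on normal diet Herpud1 was lowest in replicate 2 and highest in replicates 3 and 4, and so was Hspa5. In males on high fat diet Hspa5 was highest in replicates 1 and 4, at 1460 and 1040 CPM, while Herpud1 was lowest there, at 199 and 190 CPM. Male high fat diet replicate 1 had 1460 CPM of Hspa5, within the range of the normal diet males, but 199 CPM of Herpud1 where they had 446 or more.

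**Figure D4:**
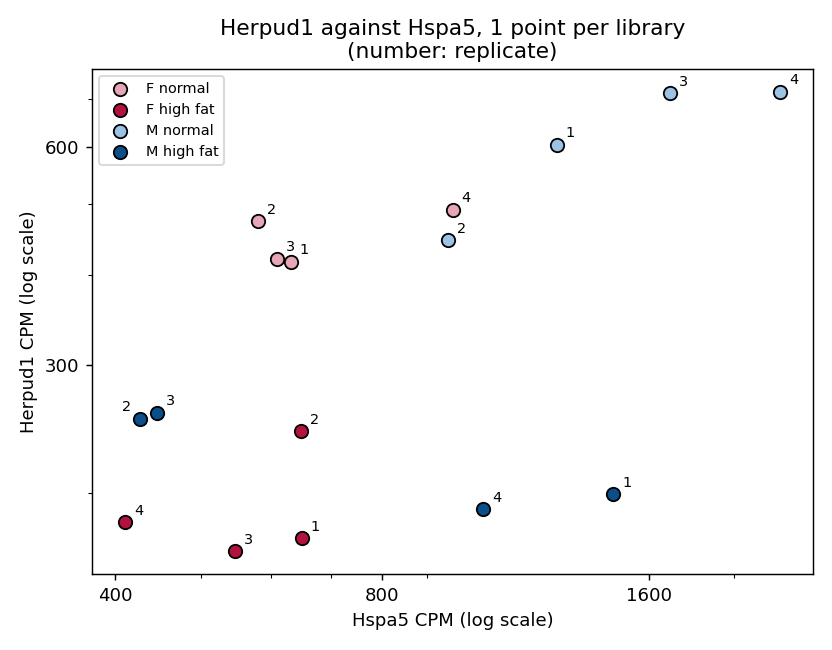
Herpud1 CPM against Hspa5 CPM on log axes, 1 point per library with its replicate number. High fat diet libraries of both sexes lie between 166 and 258 CPM of Herpud1 whatever their Hspa5, and normal diet libraries between 417 and 716 CPM.

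Among tested genes that averaged 1 or more in log2 CPM, the 5 whose deviations from group means were most like the mean of the 10 genes were Creld2, Plpp5, Manf, Zfp9 and Dnajb11. Their Pearson correlations over 16 libraries were 0.985, 0.963, 0.961, 0.960 and 0.958. Without male high fat diet replicates 2 and 3 they were 0.978, 0.956, 0.947, 0.942 and 0.939. Creld2, Manf and Dnajb11 encode ER lumen proteins and stand on the wider pathway lists.

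Other cell stress and rhythm genes differed between the same groups. Of 7 cytosolic heat shock genes, the chaperones of the cytosol, 6 fell with high fat diet in males and 1 in females. Of all tested genes 5.36% and 5.76% were called lower in these comparisons. On normal diet 6 of the heat shock genes were lower in females than in males, where 8.68% of all tested genes were called lower. On high fat diet 1 was lower and 1 higher, where 20.4% of all tested genes were called. Their summed level was 2210, 2390, 2690 and 3460 CPM in males on normal diet and 1060 to 1270 CPM in males on high fat diet, and in females 1680 to 1960 CPM on normal and 1150 to 1780 CPM on high fat diet. In the 4 high fat diet males Hspa5 varied 3.42-fold. Of 9 circadian clock genes tested, 2 rose and 4 fell with diet in females, and 1 rose and 6 fell in males. Of 5 immediate early genes, 3 rose in females and 2 in males. With diet 11.5% of all tested genes were called in females and 11.4% in males. The hour of collection is not given in the sources used here, and the part of these differences in the results for the 10 genes was not tested.

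Marker levels of other cells moved with some results too. Of the 7 hepatocyte markers, 3 fell with diet in each sex, against 5.76% (females) and 5.36% (males) of all tested genes called lower. These were Cps1, Hnf4a and Tat in females and Alb, Hnf4a and Tat in males. On log2(TPM + 1), 1 was called in each sex. The sum of the 7 was 105000 to 118000 CPM in females on normal and 80900 to 97400 CPM on high fat diet. In males on normal diet it was 86400 to 96300 CPM. The summed hepatocyte markers were lowest in males on high fat diet, at 56700 to 78500 CPM. The lowest were replicates 1 and 4, which were high in Hspa5. Alb, the largest part of the sum, had 37600 and 39400 CPM there, against 58200 and 58600 CPM in replicates 2 and 3. Ttr, Cps1 and Tat were lower there too, Hnf4a and Serpina1c were higher, and Apoa1 was mixed. Acinar markers were raised in male high fat diet replicates 2 and 3, where 1 and 2 of the 10 genes were above the group mean, Herpud1 among them in both. They were also raised in female normal diet replicate 4, where 9 of the 10 were above the group mean and Ddit3 was lowest of its group. Of the 7 Kupffer cell and macrophage markers, 2 rose with diet in females, Cd68 (0.90) and Csf1r (0.60), and 1 in males, Cd68 (0.63). On high fat diet 4 of the 7 were higher in females than in males. Their summed level was 198 to 270 CPM in females on normal and 311 to 425 CPM on high fat diet, and 173 to 261 and 155 to 298 CPM in males. Of the 6 stellate cell markers, 2 rose with diet in females, Col1a1 (1.61) and Des (0.76), while Dcn (-0.15) and Lrat (-0.14) had negative changes. The stellate sum was 319 to 329 CPM in females on normal and 308 to 344 CPM on high fat diet. Of the plasma and B cell markers, Igkc was at 0 in females on normal diet and Tnfrsf17 in both male groups, and their sum was at most 20.7 CPM. In males the sum was 2.95 to 6.46 CPM on normal and 7.26 to 20.7 CPM on high fat diet. All 4 of these markers that were tested had positive changes with diet in males, and 1 was called, Ighm (1.52 ± 0.38, edgeR adjusted p = 0.017). The part of these markers in the results was not tested. The Herpud1 fall was called without the 3 libraries that held acinar transcripts, in both sexes.

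The wider pathway was described by 4 lists, of sensors and transducers, ER chaperones and foldases, ER-associated degradation (ERAD) with translocon, and targets of the PERK branch. Of their 76 genes 75 were tested. With diet, 4 rose and 6 fell in females (13.3%, against 11.5% of all genes), and 4 rose and 4 fell in males (10.7%, against 11.4%). The median log2 fold change of the 75 genes was -0.14 in females and -0.10 in males, beside 0.002 and 0.01 over all genes tested. These directions in females depend on the scale: on log2(TPM + 1) 9 rose and 2 fell, and the median of the 17 chaperone and foldase genes went from -0.19 to 0.07. Of these 17 the test called 1, Sil1, a nucleotide exchange factor of BiP (-0.32 ± 0.09, edgeR adjusted p = 0.0293), and on log2(TPM + 1) it called none. In males the split was 3 higher and 1 lower on log2(TPM + 1).

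In females 7 of the 10 calls with diet were targets of the PERK branch, and these went both ways. The list had 25 tested genes, so 28% of it was called, against 11.5% of all tested genes. Ddit4, an inhibitor of mTORC1, fell from 7.62 ± 1.71 to 1.82 ± 0.386 CPM (SD, n = 4), a log2 fold change of -2.07 ± 0.25 (edgeR adjusted p = 6.7e-05). Cebpb, a liver transcription factor, fell from 28.3 ± 5.83 to 12.7 ± 3.90 CPM (edgeR adjusted p = 0.00218). Gdf15, a stress hormone, rose from 0.858 ± 0.391 to 2.32 ± 0.636 CPM (edgeR adjusted p = 0.0118). Bbc3, the pro-apoptotic protein PUMA, rose from 0.997 ± 0.211 to 2.26 ± 0.555 CPM (edgeR adjusted p = 0.00543). Erlec1, a lectin of ERAD, fell by 0.35 on the log2 scale (edgeR adjusted p = 0.0091), and Eif2s1, the translation factor that PERK phosphorylates, fell by 0.31 (0.0499). Ddit4, Cebpb, Gdf15 and Bbc3 were called in all 18 alternative settings. The falls of Erlec1, Eif2s1 and Sil1 were lost in 3, 13 and 12 of them, the TPM scales among these in each case.

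In males Ddit4 fell as well, by 0.83 on the log2 scale (edgeR adjusted p = 0.0288). Selenos and Derl3, both of ERAD, moved in opposite directions. Selenos, a selenoprotein of the ERAD complex, had 65.5 to 71.1 CPM on normal diet and 61.8, 29.2, 31.8 and 46.3 CPM on high fat diet (-0.69 ± 0.19, edgeR adjusted p = 0.0248). Derl3, a channel component, had 0.824, 0.542, 1.17 and 2.60 CPM on normal diet and 4.72, 2.92, 3.57 and 5.62 CPM on high fat diet (1.69 ± 0.45, edgeR adjusted p = 0.0214). Fgf21, a hormone of the fasted liver, rose by 2.43 ± 0.70 (edgeR adjusted p = 0.0377), and Vldlr, a lipoprotein receptor, by 2.12 ± 0.47 (edgeR adjusted p = 0.0097). Vldlr was highest in male high fat diet replicates 2 and 3, at 4.89 and 5.46 CPM, against 1.11 and 1.42 CPM in the others. Txndc5 and Ero1a, both of oxidative folding, fell by 0.43 and 0.35 (edgeR adjusted p = 0.0241 and 0.0446). None of these 7 male results was called in all 18 alternative settings: Ddit4 was lost in 9, Selenos in 9, Derl3 in 4, Fgf21 in 11, Vldlr in 4, Txndc5 in 10 and Ero1a in 13. With male high fat diet replicates 2 and 3 left out, Derl3 (1.99) and Fgf21 (2.91) were called, and Vldlr (0.75), Selenos (-0.33), Ddit4 (-1), Txndc5 (-0.24) and Ero1a (-0.26) were not.

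Females had lower levels of many genes of these lists than males, on either diet. On normal diet 16 of the 75 were lower and 2 higher in females (24%, against 15.7% of all genes), and on high fat diet 21 were lower and 3 higher (32%, against 20.4%). On log2(TPM + 1) the split on high fat diet was 5 higher and 8 lower. The median log2 fold change was -0.26 on normal and -0.32 on high fat diet. Syvn1, the ubiquitin ligase at the core of ERAD, had 17.1 ± 4.72 CPM in females, compared with 48.3 ± 15.2 CPM in males on normal diet (-1.50 ± 0.29, edgeR adjusted p = 0.00366). Eif2ak3, which encodes PERK, had 11.6 ± 2.59 and 22 ± 4.67 CPM (-0.93 ± 0.21, edgeR adjusted p = 0.00632). Vcp, the ATPase that extracts proteins from the ER, had 278 ± 29.1 and 407 ± 19.8 CPM (-0.55 ± 0.09, edgeR adjusted p = 0.000816).

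On normal diet the chaperone partners Dnajb11 and Pdia3 were lower in females by 0.88 and 0.60 on the log2 scale (edgeR adjusted p = 0.0289 and 0.031). The tRNA synthetases Aars1 and Nars1 were lower by 0.66 and 0.70. Slc3a2, the heavy chain of amino acid transporters, was higher (0.43 ± 0.11, edgeR adjusted p = 0.0121), and so was Vldlr (3.61 ± 0.46, edgeR adjusted p = 0.000126). Of the genes named for this comparison, Dnajb11 and Pdia3 lost their calls in 6 and 7 of 18 alternative settings and the other 7 in none.

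On high fat diet Derl3 had 0.512 ± 0.294 CPM in females, compared with 4.21 ± 1.20 CPM in males (-3.03 ± 0.49, edgeR adjusted p = 0.000503). Dnajc3, a BiP co-chaperone that also inhibits PERK, had 217 ± 38.3 and 373 ± 52.6 CPM (-0.78 ± 0.17, edgeR adjusted p = 0.00413). Atf6, the sensor of the third branch, was lower by 0.56 and Mbtps2, the protease that releases it, by 0.52 (edgeR adjusted p = 0.0084 and 0.0251). Pdia6, Sec24d, Nars1 and Ddit4 were also lower in females, by 0.68, 0.89, 0.64 and 1.14. Atf5, a factor downstream of ATF4, was higher in females (1.20 ± 0.30, edgeR adjusted p = 0.0119), as was Vldlr (2.49 ± 0.40, edgeR adjusted p = 0.000778). Mbtps2, Pdia6, Atf5 and Atf6 lost their calls in 9, 6, 3 and 2 of 18 alternative settings, for Atf6 on both TPM scales, and the other 6 genes named here in none. With male high fat diet replicates 2 and 3 left out, Mbtps2 (-0.55) and Atf5 (1.16) were not called and the other 8 were.

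**Figure D5:**
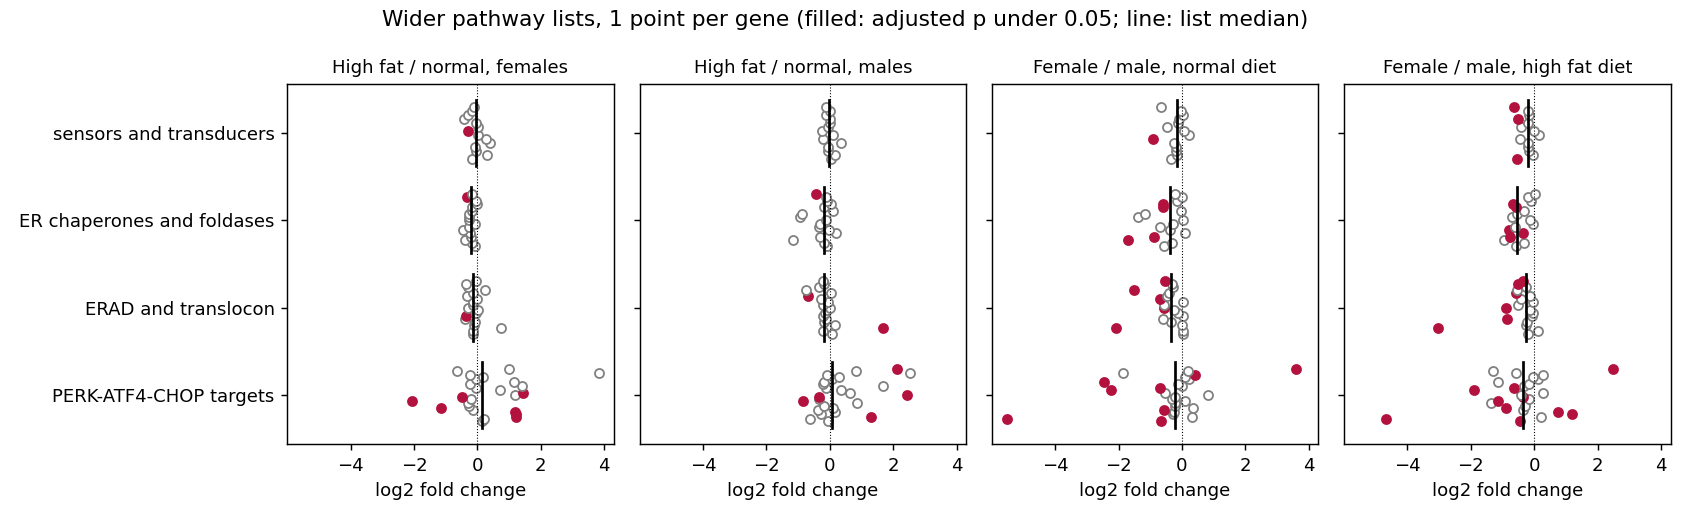
Log2 fold change (horizontal axis) of each tested gene of the 4 wider lists (vertical axis) in 4 comparisons, with filled points for an adjusted p under 0.05 and a line at each list's median. The medians of all 4 lists lie below 0 in both comparisons of females with males, on the CPM scale shown and on log2(TPM + 1).

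The ER stress element of the Hspa5 and Hsp90b1 promoters was also found in 6 of the 13 chaperone and foldase genes with a promoter window (Calr, Canx, Pdia6, Dnajc3, Creld2 and Ero1b). In the ERAD list it was in 2 of 15, Syvn1 and Derl3, and it was in none of 12 sensors and 23 PERK branch targets. The amino acid response type element was in 8 of the 23 PERK branch targets.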

How the data were processed

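Liver poly(A) RNA of 16 libraries was sequenced. Per the submitters' processing notes, STAR, RSEM and the GRCm39 build were used, with no role or version stated. The authors deposited RSEM estimated counts per gene, in which 4.89% of entries were not whole, and TPM. Counts were rounded. Genes were kept by filterByExpr of edgeR 4.0.16 (R 4.3.3), which left 14781 genes with 99.94% of counts, and libraries were scaled by TMM. One quasi-likelihood fit with robust settings over the 4 groups gave 5 two-sided comparisons. A gene was called at a Benjamini-Hochberg adjusted p under 0.05 over all tested genes. SE is the log2 fold change over the root of F. CPM are relative to the TMM-scaled library. Alternatives used DESeq2 1.42.0 and limma 3.58.1 on log2(TPM + 1) and log2(TPM + 0.1), other scaling, filters and library choices. The scripts were tested on simulated data.

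The 10 genes and the lists were chosen with earlier results of these data known. The text names all 10 genes. Of each wider list it names the 2 called genes with the smallest p in each direction and comparison, and it names the 5 genes most like the mean of the 10. Symbols came from a supplied table, and overlaps from GENCODE M21, a GRCm38 annotation that is not the files' build. Ddit3 matched 2 identifiers, and the one with at most 1 count in any library was not used. The 16 libraries share 1 batch number in the labels, so no comparison within batches was needed.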

Additional observations from a re-analysis of the deposited data

Results flagged for a closer look

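In 3 of 40 combinations of gene and group, 1 library lay far from the other 3 by Dixon's test at the 95% level, and chance alone marks about 1 in 20. All 3 were female normal diet replicate 4: Hspa5 with 961 CPM, where the others had 579 to 631 CPM, Dnajb9 with 179 CPM, and Sdf2l1 with 7.5 CPM. The gap was 0.865, 0.841 and 0.834 of the group's range. This library held 5.29 CPM of summed acinar markers, and the part of that in these values was not tested.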

How the results depend on the processing

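Of the 10 genes and the named genes of the wider lists, no called change turned its direction in the settings run. Changes of the 10 genes that were not called did in some, and the Herpud1 fall with diet was called in all. Of the 10 genes, the number called with diet in males was 1, and it was 2 with DESeq2, with male high fat diet replicates 2 and 3 left out, and with the 3 libraries holding acinar transcripts left out (these last settings were chosen after seeing the data). On normal diet the sexes differed in 4 genes, and in 2 without a filter on low counts in 2 on log2(TPM + 1) or log2(TPM + 0.1), in 5 with DESeq2, and in 6 with the 2 or with the 3 libraries left out. On high fat diet they differed in 0, in 1 with DESeq2, log2(TPM + 1) or replicates 2 and 3 averaged, and in 4 and 5 with the 2 or 3 libraries left out. The 1 gene was Sdf2l1, lower in females, with DESeq2 and with the averaged replicates. On log2(TPM + 1) it was Trib3, higher in females (0.52, limma adjusted p = 0.048). Leaving out 1 library each gave 1 to 1 genes with diet in females, 1 to 5 in males, 0 to 1 for the interaction, and 1 to 5 and 0 to 1 between the sexes on normal and high fat diet. The lowest on normal diet, 1, came without female replicate 2.

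Of the wider lists, 10 genes were called with diet in females and 5 without the filter. In males 8 were called, 5 without the filter, 4 with the compared groups alone, 13 with DESeq2, 4 on either TPM scale, and 4 and 3 with the 2 or 3 libraries left out. The interaction called 0, 1 without the filter and 3 with DESeq2. Between the sexes, the compared groups alone gave 28 in place of 18 on normal diet and 12 in place of 24 on high fat diet, where TPM gave 13 and 12 at pseudocounts of 1 and 0.1. Leaving out 1 library each gave 6 to 10 and 1 to 11 genes with diet in females and males, 0 to 1 for the interaction, and 9 to 19 and 14 to 26 between the sexes on normal and high fat diet. On TPM the diet calls in females were 9 higher and 2 lower, against 4 and 6, in a setting that changed both unit and test and moved the median of all genes by 0.15, and on high fat diet the sexes differed in 5 higher and 8 lower, against 3 and 21. In males with the compared groups alone the calls were 4 higher and 0 lower, and with replicates 2 and 3 averaged 5 and 1, against 4 and 4.

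The deviations of same-numbered libraries had a correlation above 0.1 in 3 of 16 pairs, with a range of -0.159 to 0.18. Between females and males of the same diet the correlations were all positive. They were 0.0498 to 0.164 on normal diet and 0.0215 to 0.18 on high fat diet. Such small values do not settle whether the numbers pair the libraries. The fit with the replicate block called 5 of the 10 genes between the sexes on normal diet, where Atf4 was added (-0.34, edgeR adjusted p = 0.0447). It called 1 on high fat diet (Sdf2l1, -1.11, edgeR adjusted p = 0.0384). Of all tested genes it called 18.2% and 23.3% in these comparisons, against 15.7% and 20.4% without the block. Trib3, Ddit3 and Sdf2l1 had the lowest CPM and so rest on the fewest reads.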
